A study of Mus musculus with 2 samples.

Results

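The transcription factors of the Sox family were examined in the ovary of 2-day-old mice. The members are 10 genes, Sox4, Sox5, Sox6, Sox7, Sox9, Sox11, Sox12, Sox13, Sox17 and Sox18. Every probe set whose single gene symbol in the annotation of the array was one of these names was taken, which gave 37 of 34945 named probe sets. The 10 genes stand among 18193 named genes on the array. The study compared 2 pools of ovarian RNA, each made of equal amounts of RNA from 8 mice and hybridised to 1 Affymetrix array. The control pool came from mice labelled Amhr2(+/+)-SmoM2, with the SmoM2 allele and no Cre. The mutant pool came from mice labelled Amhr2(cre/+)-SmoM2, with Cre in place at 1 copy of Amhr2. Both genotypes therefore carry SmoM2, a constantly active form of the hedgehog signal transducer Smoothened that is expressed once Cre has acted. Amhr2 encodes the receptor of anti-Müllerian hormone and directs Cre to somatic cells of the gonad. Loss of 1 intact Amhr2 copy, presence of Cre and activation of SmoM2 cannot be told apart.

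Sox proteins are transcription factors that bind the minor groove of DNA through an HMG box like that of Sry, the founding member, and bend it. They are grouped by the likeness of that box. The SoxC genes Sox4, Sox11 and Sox12 act in immature and progenitor cells, the SoxD genes Sox5, Sox6 and Sox13 lack an activation domain of their own and often work as partners of other Sox proteins, the SoxE gene Sox9 drives Sertoli cell fate in the fetal testis and cartilage formation, and the SoxF genes Sox7, Sox17 and Sox18 act in endothelial cells. In the ovary Sox9 is normally kept low, and Foxl2 is known to hold it down in granulosa cells of adult mice.

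The values are signal intensities on a linear scale as the authors deposited them. A probe set is called measured if either pool gave a signal of at least 80.7, which is the median signal of both arrays together. Ratios of mutant to control are given as log2 ratios after adding a pseudocount of 22.2 to both signals, which understates the change of dim genes. A probe set or gene was called at 1.5-fold or more on this scale. Each genotype has a single array, so no replicate error exists, no p-value was computed, and every difference describes these 2 pools only. The only spread at hand is that between measured probe sets of the same gene, with an SD of 0.38 on the log2 ratio over 13386 probe sets of 5118 genes. Pooled tissue RNA cannot separate fewer cells of a type from less RNA per cell.

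The minimum was reached by 50.3% of probe sets on the control array and 49.8% on the mutant array. The hedgehog targets that check the label were higher in the mutant pool, with 264 against 103 for Gli1 and 15949 against 5574 for Ptch1. Hhip read 3215.5 in mutant and 1.1 in control RNA, at least 39.8-fold. On the brightest probe set Smo had a log2 ratio of 0.28 and Amhr2 of -1.30. The second measured probe set of Smo had 0.49, and the 3 measured ones of Amhr2 ran from -1.30 to -0.26. Of the listed ovarian markers, all 10 germ cell genes and 10 of 11 pregranulosa genes were measured, where 12308 of all 18193 named genes were. The ratio of 3' to 5' signal was 8.48 in control and 10.5 in mutant RNA for beta-actin, and 3.28 and 4.98 for Gapdh. For the spiked hybridization controls the median log2 ratio was 0.23. Scaling the mutant array to those controls lowers the median of all measured genes to -0.25, and the Sox ratios and list medians that change sign under it are named below.

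Promoter sequence was at hand in the RefSeq table (GRCm38.p6) for 6 of the 10 genes, in 11 windows, of which 6 belong to alternative starts of Sox6. The 250 bases before the start site are shown for Sox12 and Sox13, the genes whose representative probe set was past 1.5-fold downward, and for 1 start of Sox6, which had a further probe set past that fold. All are on the minus strand and are written 5′ to 3′ along the gene, and capitals mark matches on either strand to the Sp1-type box GGGCGG, the Sox motifs AACAAT and AACAAAG, and the Gli motif GACCACCCA. Matches of GGGCGG may overlap one another.
Sox12, chr2:152398047-152398296: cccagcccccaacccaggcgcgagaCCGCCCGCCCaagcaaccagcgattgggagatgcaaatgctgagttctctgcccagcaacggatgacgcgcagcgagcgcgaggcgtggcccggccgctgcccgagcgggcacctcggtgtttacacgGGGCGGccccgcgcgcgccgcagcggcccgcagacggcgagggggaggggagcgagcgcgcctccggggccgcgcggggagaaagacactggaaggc
Sox13, chr1:133424213-133424462: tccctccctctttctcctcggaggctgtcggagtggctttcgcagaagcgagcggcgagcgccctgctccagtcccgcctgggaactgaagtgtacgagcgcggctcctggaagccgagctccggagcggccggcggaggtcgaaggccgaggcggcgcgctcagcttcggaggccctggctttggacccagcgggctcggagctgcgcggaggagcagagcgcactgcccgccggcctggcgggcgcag
Sox6, chr7:115824711-115824960: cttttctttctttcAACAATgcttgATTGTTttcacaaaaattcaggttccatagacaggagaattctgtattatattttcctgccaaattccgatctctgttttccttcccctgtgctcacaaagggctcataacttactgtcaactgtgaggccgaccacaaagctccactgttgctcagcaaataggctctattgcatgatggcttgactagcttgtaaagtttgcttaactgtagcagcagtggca

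The windows of Sox12 and Sox13 were rich in CpG, with 35 and 31 CpG dinucleotides against a median of 6 over all 32851 windows. Sox12 held 3 matches of GGGCGG and Sox13 none, while 32.7% of all windows hold at least 1. The Sox6 window shown had 2 CpG and 2 matches of AACAAT. It is the only 1 of the 11 Sox windows with this motif, which was found in 9.42% of all windows. AACAAAG was found in 3 other windows of Sox6 and in 5.03% of all windows. GACCACCCA was found in 0 of the 11 Sox windows and in 0.225% of all windows, so these letters are rare in windows of this length.

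All 10 genes had at least 1 measured probe set, and 24 of the 37 probe sets were measured. The brightest measured probe set, by the mean of both pools, stands for each gene. By this rule 2 genes, Sox9 and Sox18, were at least 1.5-fold higher in the mutant pool, where 9.31% of the 12308 measured genes were. A further 2, Sox12 and Sox13, were at least 1.5-fold lower, where 7.88% of the measured genes were. On the log2 ratio Sox9 was also past 2-fold upward and Sox13 downward, against 3.21% and 1.4% of all measured genes, but the control value of Sox9 lay under the minimum and its signals bound the fold only at 1.75 or more. The median log2 ratio of the 10 genes was 0.08, beside -0.02 over all measured genes. Among probe sets, 4 of the 24 passed 1.5-fold upward and 6 downward, against 8.8% and 9.86% of the 20576 measured named probe sets. Scaled to the hybridization controls, 2 genes passed 1.5-fold in each direction as well, but 4.85% of all measured genes were then that much higher and 18.0% that much lower. The median of the 10 genes was -0.14 under that scaling, and 2 Sox probe sets in place of 4 passed the fold upward.

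**Figure D1:**
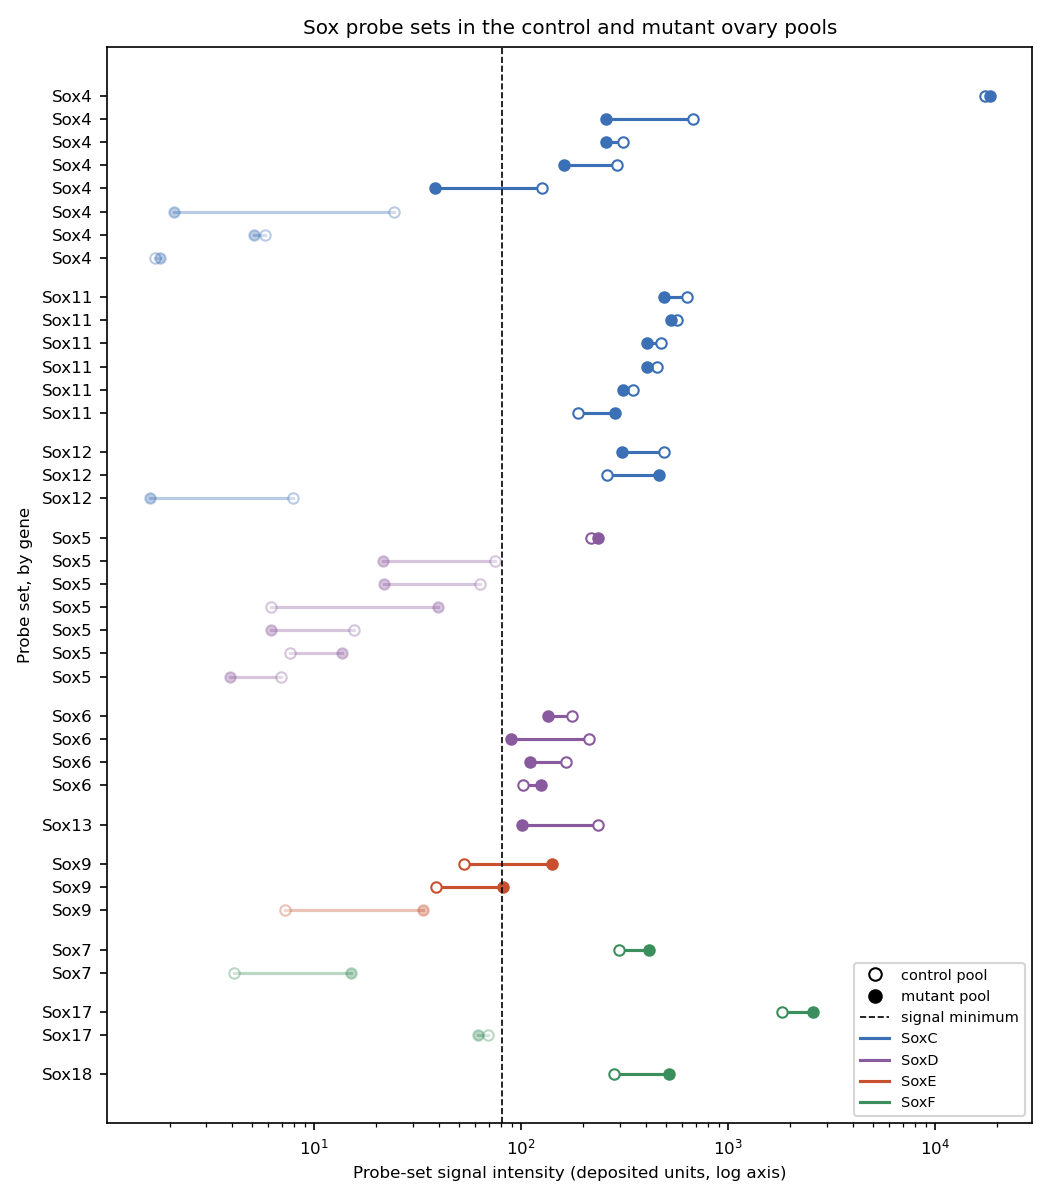
Signal intensity (log axis) of all 37 Sox probe sets, with the control pool as open and the mutant pool as filled circles, 1 row per probe set and faded where neither value reaches the minimum of 80.7 (dashed line). The measured Sox9 and SoxF probe sets lie further right in the mutant pool, whereas those of Sox4, Sox11, Sox12 and Sox6 point both ways. Ratios of both signs were found in 48.9% of the 5118 genes with at least 2 measured probe sets.

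The SoxE gene Sox9 (Entrez gene 20682), the Sertoli and cartilage factor, was brighter in the mutant pool on all 3 of its probe sets. Its brightest probe set read 53.0 in control and 140.9 in mutant RNA, a log2 ratio of 1.12 and at least 1.75-fold, since the control value lay under the signal minimum. The second read 38.7 and 81.6 (log2 ratio 0.77), but the mutant value passed the minimum so narrowly that the fold is only at least 1.01. The annotation lists the same source sequence for both, so they are not independent readings. The last stayed under the minimum at 7.2 and 33.7. Measured probe sets were divided by signal into 4 classes of equal size, since dim ones pass the fold more often. In the dimmest class, which holds both, 14.3% were at least 1.5-fold higher, and 3.71% had a log2 ratio as high as that of the brighter one.

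Genes that work with Sox9 in the testis did not share a direction. Of 12 listed Sertoli markers and Sox9 partners 9 were measured, with 1 past 1.5-fold upward, 1 downward (2 with scaling to the hybridization controls) and a median log2 ratio of 0.30. Beside this count and those of the lists below, 9.31% of all measured genes passed 1.5-fold upward and 7.88% downward. With that scaling the shares were 4.85% and 18.0%. Cyp26b1, which breaks down retinoic acid, read 87.5 in control and 331.9 in mutant RNA (log2 ratio 1.69). Ptgds, the prostaglandin D synthase that Sox9 activates in Sertoli cells, read 877 and 502 (-0.78). Nr5a1, the nuclear receptor that acts with Sry and Sox9 on the Sox9 enhancer, had 0.53 and the growth factor receptor Fgfr2 0.55. The Sertoli products Amh and Dmrt1, named here after their values were seen, stayed under the minimum at 9.1 and 9.8 for Amh and at 38.4 and 19.5 for Dmrt1. The second SoxE gene, Sox8, which supports Sox9 in Sertoli cells, read 80.7 and 90.0 in control and mutant RNA, and the remaining one, Sox10, lay between 7.1 and 55.2 on 3 probe sets.

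Pregranulosa genes, including the one that holds Sox9 down in adults, were mostly lower in the mutant pool. Foxl2 gave signals of 8097 for control and 4182 for mutant RNA (log2 ratio -0.95). The R-spondin receptor Lgr5 had -1.23, the transcription factors Runx1 and Irx5 -1.10 and -0.94. Of the 10 measured genes 6 were past 1.5-fold downward and 1 upward, with a median of -0.63. The summed signal of the list was 30894 and 25401, of which Kitl, named after its values were seen, gave 12948 and 14627. The part of the pregranulosa genes in the Sox9 values was not tested.

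In cartilage Sox9 works together with Sox5 and Sox6 on matrix genes, and 6 of 12 such genes were measured in the ovary. Their median log2 ratio was 0.45, with 2 past 1.5-fold upward and 0 downward. Col9a1, a chain of collagen IX, read 34.1 in control and 148.1 in mutant RNA, at least 1.84-fold. Hapln1, which links hyaluronan to proteoglycans, read 282 and 724 (log2 ratio 1.29), and its 4 measured probe sets lay between 0.45 and 1.29. Col11a1 and Col27a1, at 0.54 and 0.36, each had a second measured probe set below 0. The defining cartilage genes Col2a1 and Acan, named after their values were seen, were under the minimum in both pools, at 26.6 and 1.5 for Col2a1 and 1.1 and 65.5 for Acan.

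The SoxF genes, which act in endothelium, were higher in the mutant pool on all 3 measured probe sets of 5. Sox18 (20672), a regulator of vascular and lymphatic development, read 280.2 in control and 519.3 in mutant RNA, 1.85-fold and a log2 ratio of 0.84. It has 1 probe set, so no second reading exists. Sox17 (20671), a factor of arterial endothelium and of endoderm, read 1829.4 and 2572.8 on its measured probe set, a log2 ratio of 0.49. That probe set carries the suffix of those in which some probes may bind other transcripts. The other Sox17 probe set stayed under the minimum and pointed the other way, at 69.3 and 61.6. Sox7 (20680), which acts with Sox17 and Sox18 in vessel formation, read 295.6 and 415.4 (log2 ratio 0.46), and 4.1 and 15.1 on its second, dim probe set. Only Sox18 among the SoxF genes passed 1.5-fold. In its signal class 8.39% of probe sets were at least 1.5-fold higher and 4.12% had a log2 ratio as high. The Sox7 and Sox17 ratios were 1.20 and 1.27 times the probe-set SD over all signal classes, and the ratios were 0.24 and 0.26 with scaling to the hybridization controls. That SD was 0.36 within the class of Sox7 and 0.26 within that of Sox17. In these classes 12.0% and 8.18% of probe sets, respectively, had a log2 ratio as high.

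Endothelial markers lay in the same direction, with a smaller median. Of 19 listed blood endothelial genes 17 were measured, 13 with a log2 ratio above 0, and their median was 0.30. Scaling to the hybridization controls lowers that median to 0.09, with 0 genes past 1.5-fold. In the main setting, at 1.5-fold or more 3 were higher and 0 lower, namely Pecam1, Eng and Cd34 at 0.61, 0.60 and 0.59. The control value of Pecam1 lay under the minimum, so its call rests on the log2 ratio and its signals bound the fold only at 1.45 or more. Cdh5, the cadherin of endothelial junctions, had 0.54. The Sox18 ratio was above those of all 17 endothelial genes, of which 0 reached it, whereas those of Sox7 and Sox17 lay within their range of -0.31 to 0.61. Claudin 5 (Cldn5), a known target of SOX18 in human endothelial cells, had -0.25 and Erg, an ETS factor of endothelium, -0.31, both named after their values were seen. The summed signal of the list was 6737 and 8395, and the endothelial markers Tie1 and Rasip1, named after their values were seen, stayed under the minimum in both pools. The part of endothelial cell number in the SoxF values was not tested.

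Genes of vessel subtypes were split. In the lymphatic list, Lyve1, a hyaluronan receptor of lymphatic endothelium and also of some macrophages, read 105.6 in control and 387.6 in mutant RNA (log2 ratio 1.68). Prox1, the factor that Sox18 switches on in lymphatic precursors, named after its values were seen, stayed between 0.9 and 64.1 on 3 probe sets, all under the minimum. Flt4 had a log2 ratio of 0.13, Pdpn -0.21 and Nr2f2, a gene that stromal cells express as well, 0.64. Of the leukocyte markers, 4 of the 5 measured genes were above 0 (median 0.40, and 0.18 with scaling to the hybridization controls). The macrophage genes Csf1r, Cd68 and Adgre1, the last named after its values were seen, had 0.77, 0.06 and -0.004. The part of macrophages in the Lyve1 value was not tested. Of 10 arterial and venous genes 8 were measured, and 0 passed 1.5-fold in either direction (median 0.18, and -0.03 with scaling to the hybridization controls). By representative probe set Aplnr, at 0.32, was the highest and the gap junction gene Gja4, at -0.30, the lowest. The 4 measured probe sets of Nrp2, named after its values were seen, ran from -1.57 to -0.09, the latter on the representative one.

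**Figure D2:**
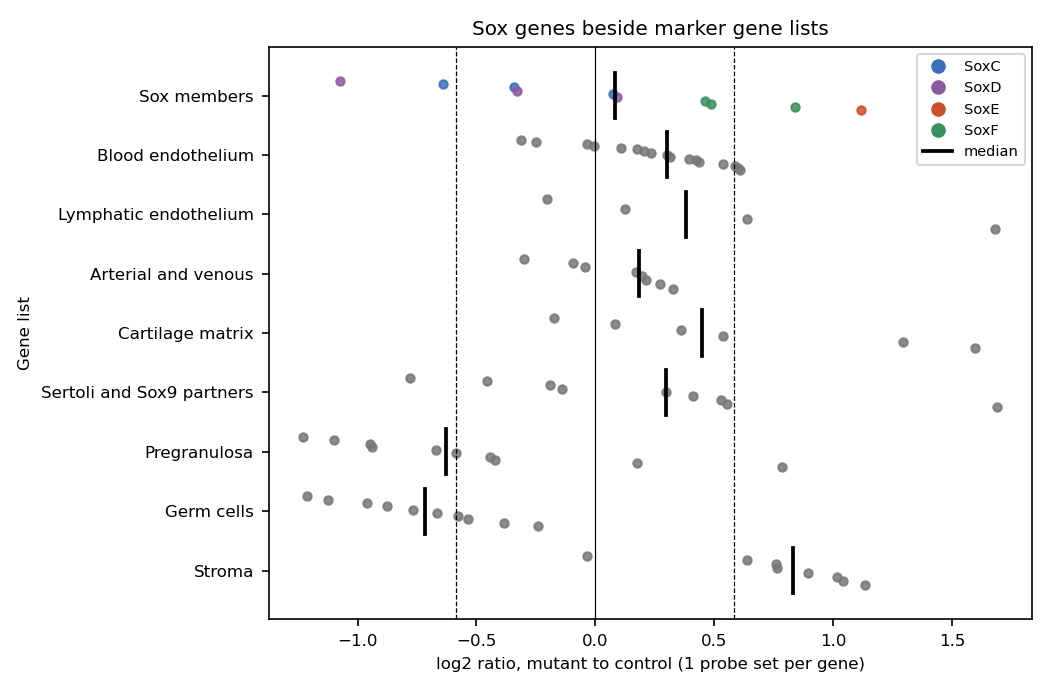
Log2 ratio of mutant to control for the 10 Sox genes and for the measured genes of 8 marker lists, each point 1 gene by its representative probe set, black bars the medians and dashed lines 1.5-fold. The stromal list has the highest median at 0.83 and the germ cell list the lowest at -0.72, while the Sox genes span -1.07 to 1.12.

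Among the SoxD genes Sox13 was lower in the mutant pool, Sox6 was lower on 3 of 4 probe sets and Sox5 had a ratio near 0. Sox13 (20668) read 236.0 in control and 100.5 in mutant RNA, 2.35-fold lower, with a log2 ratio of -1.07. It has a single probe set, whose suffix marks probes that can detect several transcripts, and the setting without such probe sets leaves Sox13 out. Sox13 is known from gamma-delta T cells, and the T cell gene Cd3e, named after its values were seen, stayed under the minimum at 5.9 and 36.6. In its dimmest signal class 16.7% of probe sets were at least 1.5-fold lower, and 3.60% had a ratio as low. Sox6 (20679), a factor of cartilage, muscle and red blood cell development, was measured on 4 probe sets. They read 176.3 and 135.6, 212.1 and 89.1, 165.4 and 110.6, and 102.2 and 125.4 in control and mutant RNA, respectively. The log2 ratios were -0.33, -1.07, -0.50 and 0.25, so 3 of 4 were lower and 1 of them passed 1.5-fold. The annotation lists a different source sequence for each, and the 1 that was higher carries the suffix of probe sets with probes that may bind other transcripts. Those at -1.07 and -0.50 carry the suffix of the Sox13 probe set, and the setting without such probe sets leaves only the Sox6 ratio of -0.33. Sox5 (20678) was measured on 1 of 7 probe sets, at 218.6 and 234.2 (log2 ratio 0.09, and -0.12 with scaling to the hybridization controls). The other probe sets stayed under the minimum in both pools, with a lowest value of 3.9. The brightest of them lay just under the minimum in the control pool and read 21.6 in mutant RNA, and the next read 63.2 and 21.8.

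Sox6 also acts in red cell precursors, and 2 of 7 measured erythroid genes were past 1.5-fold downward in the same pool. Alas2, which starts haem synthesis in red cells, had a log2 ratio of -1.64 and the anion exchanger Slc4a1 -1.16. The list holds 12 genes, and the measured ones had a median of -0.18, with 1 past 1.5-fold upward. Their summed signal was 3512 and 2253, of which Slc4a1 alone gave 1864 and 820. The 1 that was higher was the adult globin Hbb-b2, which probes may not tell from its near-identical copy, at 103.8 in control and 218.5 in mutant RNA. The embryonic globins Hbb-y and Hbb-bh1, which Sox6 silences, stayed under the minimum on all probe sets and are named after their values were seen. The part of red cells in the Sox6 values was not tested.

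Probe sets of the same SoxC gene gave divided readings. Mixed signs alone are common, since 48.9% of the 5118 genes with at least 2 measured probe sets had ratios of both signs. Sox4 (20677), a factor of progenitor cells, has 8 probe sets, of which 5 were measured. The brightest read 17528.8 in control and 18438.0 in mutant RNA, a log2 ratio of 0.07. The next read 674.4 and 255.9 (-1.32), then 311.2 and 257.5 (-0.25), 289.1 and 160.4 (-0.77), and 126.0 and 38.3 (-1.29). The mutant value of the last lay under the minimum, so its signals bound the fold only at 1.56 or more. The brightest probe set differed by less than the probe-set SD of 0.38 (and by -0.16 with scaling to the hybridization controls), whereas 3 of the other 4 were past 1.5-fold downward. The sample SD of these 5 ratios was 0.62, and 6.88% of the 276 genes with at least 5 measured probe sets had an SD that high. Of the 4 dimmer measured probe sets, 3 share 1 source sequence in the annotation with a further probe set that stayed at 1.7 and 1.8. The bright probe set has a different source sequence. Where these sequences lie along the transcript is not given in the sources used here. The 3' to 5' signal ratios above were also higher in the mutant pool, and their part in the Sox4 difference was not tested.

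**Figure D3:**
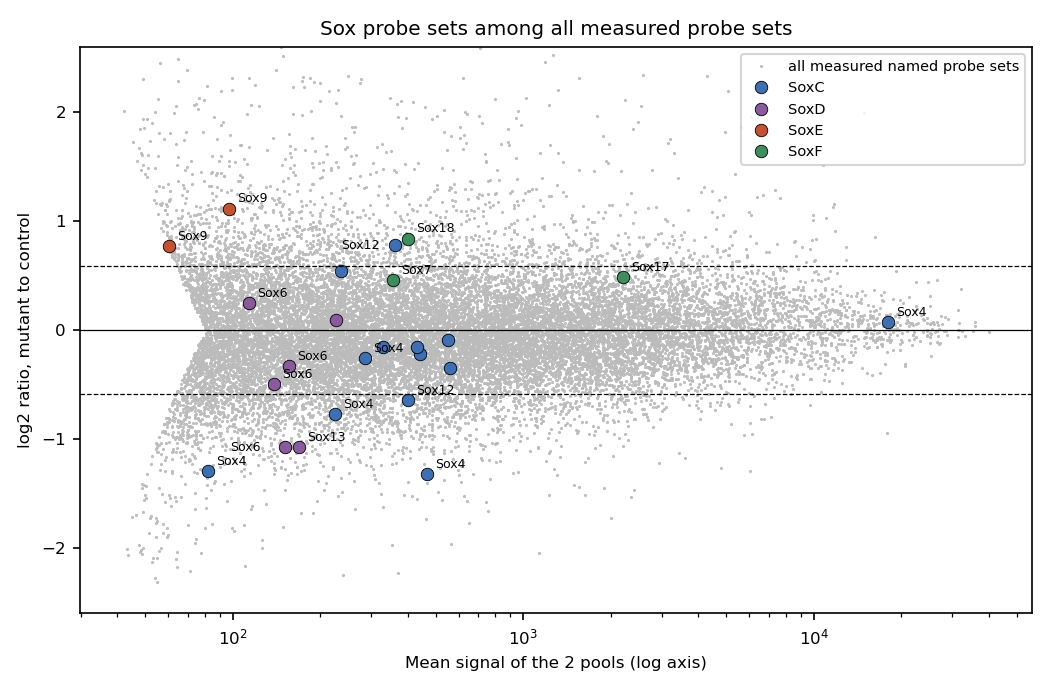
Log2 ratio of mutant to control against the mean signal of the 2 pools (log axis) for all measured named probe sets in grey and the 24 measured Sox probe sets in colour, with dashed lines at 1.5-fold. The vertical axis is limited to 2.6 in each direction, which leaves out 42 probe sets, none of them Sox, and the bright Sox4 probe set lies near 0 while 3 dimmer ones lie under the lower line.

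Sox11 (20666), which acts beside Sox4 in embryonic progenitors, was measured on all 6 of its probe sets and is the member with the most readings. Their control signals lay between 187.6 and 630.1 and their mutant signals between 282.7 and 531.6. The log2 ratios were -0.34, -0.09, -0.22, -0.15, -0.16 and 0.54, and 0 of 6 passed 1.5-fold. The annotation lists the same source sequence for the probe sets at -0.34 and -0.16. Those at -0.09 and -0.22 share another, so the 6 are not all independent readings. The 1 above 0 was the dimmest in the control pool. Sox12 (20667), the third SoxC gene, had opposite readings. The brighter probe set stood at 491.7 in control and 307.1 in mutant RNA (log2 ratio -0.64), and the other stood at 260.4 in control and 462.8 in mutant RNA (0.78). In their signal class 10.8% of probe sets were at least 1.5-fold lower and 8.39% that much higher. Their mean was 0.069, so the call of Sox12 as lower rests on 1 probe set. Probe sets past 1.5-fold in opposite directions were found in 1.06% of the 5118 genes with at least 2 measured. Of 4 genes that Sox4 and Sox11 are known to activate in other tissues, Tead2 was measured, at 263.8 and 302.7 (0.18, and -0.03 with scaling to the hybridization controls), and the neuronal genes Tubb3, Dcx and Neurod1, named after their values were seen, stayed under the minimum.

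The 10 Sox family genes outside the members, including Sry, had 16 probe sets, and 13 of these read under the minimum in both pools, between 0.7 and 55.2. Sry, the testis-determining gene of the Y chromosome, was among these, as were Sox1, Sox2, Sox3, Sox10, Sox14 and Sox30. Besides Sox8, the measured ones were Sox15 and Sox21. The median log2 ratio of these 3 genes, which is that of Sox8, was 0.12 (-0.06 with scaling to the hybridization controls). Sox15, a factor known from muscle precursors and the placenta, read 162.6 in control and 68.1 in mutant RNA, at least 2.01-fold lower. Sox21, a factor of neural and epithelial progenitors, read 42.2 and 94.9, at least 1.18-fold higher, and 2.3 and 12.2 on its second probe set. Sox10 is active in glia and neural crest cells. A list of nerve, glia and neural crest markers had 5 measured genes of 8, with 2 past 1.5-fold in each direction. S100b and Dbh had log2 ratios of 1.01 and 0.59, and Erbb3 and Elavl4 had -0.81 and -0.79. All but Erbb3 had 1 value under the minimum, which bounds the fold at 2.00 or more for S100b, 1.12 or more for Dbh and 1.15 or more for Elavl4.

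Germ cells and stroma, the other main sources of ovarian RNA, differed in opposite directions. Of the 10 germ cell genes all were below 0, 6 of them at least 1.5-fold lower (median -0.72), with a summed signal of 42968 and 27781. Of the 8 measured stromal genes 7 were at least 1.5-fold higher (4 with scaling to the hybridization controls, median 0.83 in the main setting), with a summed signal of 34856 and 57819. Figla, an oocyte factor, had -0.96 and Pdgfra, a receptor of stromal progenitors, 1.13. Which of these cells held each Sox transcript was not measured, and the part of cell composition in the Sox values was not tested.

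**Figure D4:**
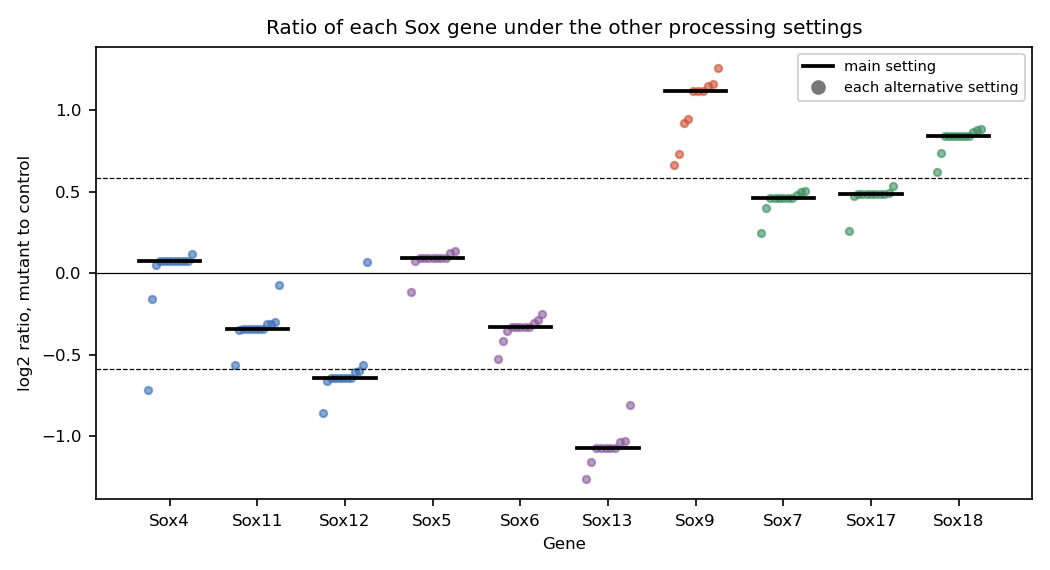
Log2 ratio of each Sox gene in the main setting (black bars) and under each alternative setting in which it was measured (points), with dashed lines at 1.5-fold. Sox18 stays above the upper line throughout at 0.62 to 0.88, Sox13 below the lower line at -1.26 to -0.81, and Sox12, Sox4 and Sox5 lie on both sides of 0.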

How the data were processed

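RNA from ovaries of single mice was pooled for each genotype, labelled with biotin and hybridised to 1 array per pool, per the labels' protocols. The deposited values are probe-set signal intensities from the authors on a linear scale, and the submitters' processing notes name GCOS. Leaving out 2% of probe sets at each end, both arrays had a mean of 500.003, and how this was set is not given in the sources used here. Values were used as deposited, with no second background correction. Gene names came from the platform annotation. Through the Entrez ID 34741 of 34945 named probe sets matched the RefSeq table, and 0 symbols differed.

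The pseudocount was the 25th percentile of all values and the signal minimum their median. Where 1 value lay under the minimum, a fold is given as at least the brighter signal over 80.7. The 4 signal classes divide the measured named probe sets equally by mean signal. Promoter windows leave out the bases after the start site. No test was possible with 1 array per group, and the number of arrays limits the precision. The calling step was run on simulated pools without noise, with large changes set in bright probe sets. This checks the arithmetic only and not the calls made here. The named genes are the members, the other Sox genes, the hedgehog check genes and from each list up to 4 measured genes, those with the ratio farthest from 0; others are marked as named after their values were seen. Calls at a fold use the log2 ratio, not the bound. Members and lists were chosen with earlier results of these data known, and the motifs after their matches were seen. Python 3.11.15, numpy 2.4.6 and pandas 2.3.3 were used.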

Additional observations from a re-analysis of the deposited data

How the results depend on the processing

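Under 12 alternative settings Sox18 stayed at least 1.5-fold higher. Sox9 and Sox13 were past 1.5-fold in their direction under the 10 in which each was measured, and the other settings left them out. Sox9 had log2 ratios of 0.73 with the pseudocount at the median and 0.66 with values under the minimum raised to it. Sox12 reversed to 0.069, and Sox4 moved to -0.71, with the mean over the probe sets of a gene. Genes at least 1.5-fold higher numbered 1 in place of 2 with a minimum at the 75th percentile of signals and with both values required to reach the minimum. The gene lost was Sox9, which was not measured under either of these settings. Genes at least 1.5-fold lower numbered 1 in place of 2 with the pseudocount at the median, with the higher minimum and without probe sets whose suffix marks shared transcripts. Probe sets at least 1.5-fold higher numbered 2 in place of 4 with the higher minimum, with both values required and with scaling to the hybridization controls, and those lower numbered 2 in place of 6 with the higher minimum, which leaves 5 Sox genes measured. Scaling to the hybridization controls moved the median of all genes to -0.25 and brought 4.85% of them higher and 18.0% lower by 1.5-fold. It turned the small ratios of Sox4 and Sox5 to -0.16 and -0.12. The share lower was 4.96% with the pseudocount at the median. Apart from these the cause was not tested. No paired analysis was possible because each group holds 1 array.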
